A study of Homo sapiens with 9 samples.

Results

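The genes of the PML nuclear body were read from all probes that the array design names PML, SP100, SP110, SP140L or DAXX, which makes 5 of 43317 gene names on the array. These genes had 9 of the 58201 probes that are not controls: 3 for PML, 3 for SP100 and 1 for each of SP110, SP140L and DAXX. Each array measured all 9 probes well above background, and all 9 were among the 26171 probes tested.

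The arrays measured RNA of T47D, a luminal breast cancer cell line of human origin, in 3 stably transfected derivatives with 3 arrays each. T47D-PA6 expresses full-length PTH-AS, a long noncoding RNA from downstream of the parathyroid hormone gene, T47D-PA5 expresses an incomplete PTH-AS that lacks part of the 5′ side, and T47D-VC1 received the empty vector. Both fragments were carried by the pTARGET mammalian expression vector, cells were selected with G418, and 1 line with high expression was taken forward, so the effect of the transgene and the differences between selected lines cannot be told apart. The sources do not say whether the 3 arrays of a line came from separate cultures, so the p-values measure only the spread between these arrays, which may be technical.

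PML nuclear bodies are spherical structures in the nucleus of most mammalian cells, built on a scaffold of the PML protein, a tripartite motif protein that is modified by the small protein SUMO and holds other proteins through it. SP100 and DAXX are among the residents of the bodies. SP110 and SP140L belong, with SP140, to the SP100 family of nuclear proteins, whose genes lie next to each other on chromosome 2. PML and several genes of the SP100 family are known to be transcribed more strongly in cells exposed to interferon, and the bodies take part in the defense against viruses, in chromatin assembly and in cell death.

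PML and SP100 are transcribed into many splice variants, and the array design assigns their probes to different subsets of these. The array design ties the first PML probe (A_23_P334664) to variant 8 and 3 other transcripts, the second (A_23_P358944) to variant 5 and 3 others, and the third (A_24_P207139) to variant 1 alone, out of 9 PML transcripts that RefSeq lists. Of the 6 SP100 transcripts, probe A_23_P349928 is tied to variant 2 alone, probe A_24_P385611 to variant 2 and 3 others, and probe A_33_P3228325 to variant 1 alone. Although A_23_P349928 and A_24_P385611 share variant 2, their mean signals in T47D-VC1 were 22145 and 119.3. The variants therefore serve here as names of probes, and which transcripts each probe read was not tested. The probe of SP110 (A_23_P120002) is tied to 4 of 10 transcripts, that of SP140L (A_23_P337753) to 1 of 7 and that of DAXX (A_23_P122579) to 4 of 4. In hg19 the PML probes lie at chr15:74315721-74317228, chr15:74328675-74328734 and chr15:74338887-74338946, and those of SP100 at chr2:231380490-231380696, chr2:231331037-231331861 and chr2:231410216-231410275, all on the plus strand. The SP140L probe lies at chr2:231267562-231267621 on the plus strand, the SP110 probe at chr2:231042261-231042320 and the DAXX probe at chr6:33287260-33287319, both on the minus strand. The first PML probe covers 1508 bases of the genome, the first SP100 probe 207 and the second 825, so these 3 probes of 60 bases each bridge a gap in the genome, and the other 6 lie on 60 unbroken bases. Whether a probe lies in coding sequence or in a UTR was not analysed here.

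The probe sequences are shown for the SP100 probe whose signal rose while the other SP100 probes did not pass the test, for a PML probe and the SP110 probe, which rose too, and for the DAXX probe, which did not pass.
PML, A_23_P334664: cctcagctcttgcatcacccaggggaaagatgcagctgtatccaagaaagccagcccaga
SP100, A_24_P385611: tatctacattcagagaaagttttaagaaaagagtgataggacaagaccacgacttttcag
SP110, A_23_P120002: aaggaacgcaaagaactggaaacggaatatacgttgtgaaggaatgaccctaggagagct
DAXX, A_23_P122579: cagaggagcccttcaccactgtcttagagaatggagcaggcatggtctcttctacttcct
The longest run of bases that any of the 9 probes shares with a probe of another gene was 22, between the second PML probe and a probe of TRIM47, whose log2 difference between T47D-PA6 and T47D-VC1 was 0.07. The other 8 probes shared at most 16 bases with any other probe. Hybridization to transcripts without a probe on the array was not tested.

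Because SP110, SP140L and SP100 are neighbors of 1 family, the sequences before their transcription starts are shown as well, from RefSeq on GRCh38.p14, a build that was not used for the probes. Capitals mark AAGTGAAA or its reverse complement TTTCACTT, letters chosen after the sequences had been seen. Runs of GAAA are the core of the sites that interferon regulatory factors are known to bind.
SP100, chr2:230415951-230416200, plus strand, the 250 bases before the start: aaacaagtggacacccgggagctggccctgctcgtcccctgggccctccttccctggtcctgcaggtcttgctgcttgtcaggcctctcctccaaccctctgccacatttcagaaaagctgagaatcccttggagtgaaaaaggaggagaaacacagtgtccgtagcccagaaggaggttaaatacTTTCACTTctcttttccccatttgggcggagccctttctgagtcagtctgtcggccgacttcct
SP140L, chr2:230326943-230327192, plus strand, the 250 bases before the start: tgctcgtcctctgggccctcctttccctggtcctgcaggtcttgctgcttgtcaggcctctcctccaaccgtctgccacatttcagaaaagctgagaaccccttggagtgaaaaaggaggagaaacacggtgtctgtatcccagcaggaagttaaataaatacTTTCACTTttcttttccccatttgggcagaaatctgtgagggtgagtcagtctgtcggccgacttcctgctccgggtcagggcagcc
SP110, chr2:230225715-230225744, minus strand, a stretch of 30 bases: gaggaaaagaaAAGTGAAAttgcctaacta
SP110, second start, chr2:230220017-230220046, minus strand, a stretch of 30 bases: actccgaaaacTTTCACTTttcttttctcg
AAGTGAAA on either strand is held by 1.62% of all 35116 RefSeq windows of the same length, from 250 bases before to 50 bases after a start. It stood 97 bases before the first and 51 bases before the second SP110 start, 87 before the SP140L start and 64 before the first SP100 start, and no match was found in the window of the second SP100 start. It was also found 10 bases before the start of SP140, where it is the same stretch of chromosome as in the first SP110 window, read from the other strand. The wider motif AANNGAAA, which includes AAGTGAAA, was held by 22.8% of all windows. A further motif that was searched, GAAA repeated after a gap of exactly 2 bases, was held by 3.57% of all windows. The repeat with this gap was found in no window of SP110, SP140, SP140L or SP100. Repeats with other gaps were not searched, and the SP110 and SP140L sequences shown above hold some on 1 strand or the other. Aligned over 231 columns, the sequences before SP100 and SP140L were identical at 207, or 89.6%, whereas the other pairs among the windows of SP110, SP140, SP140L and SP100 were identical at 52.3% to 58%. A match describes letters only, and binding was not measured. PML and DAXX are named here without a promoter sequence.

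No spot was saturated, the share of probes well above background was 44% to 48% on each array, and the limit of such signals, their lowest normalized value, was between 9.59 and 15.2. Replicate 1 of each line shared slide 1 and was scanned in a first run, and the remaining arrays, on slides 2 and 3, in a later one, so values within each run are given for the members. Replicates 2 and 3 of T47D-PA6 were both on slide 3. In the other lines replicate 2 was on slide 2 and replicate 3 on slide 3. Line and slide are therefore partly mixed in the later-run values of T47D-PA6. All 7 markers of luminal breast epithelium were well above background on all 9 arrays, with a summed signal of 479321 to 517639 in T47D-VC1, 506368 to 520149 in T47D-PA5 and 493716 to 512667 in T47D-PA6, and of these the progesterone receptor gene PGR fell in T47D-PA6 compared with T47D-VC1 (log2 fold change −1.07, adjusted p = 0.0068 in limma). Of 5 leukocyte markers, which matter here because leukocytes express the SP100 family strongly, CD3E was well above background on no array, and the summed signal was 474 to 565 in T47D-VC1, 413 to 833 in T47D-PA5 and 579 to 727 in T47D-PA6. The pan-leukocyte marker PTPRC had mean signals of 20.3, 20.8 and 18 in these lines, near the background limit, and of the 3 leukocyte markers tested CD14 alone rose (log2 fold change 1.80, adjusted p = 0.0075 in limma, mean signal 47.8 in T47D-VC1 and 167 in T47D-PA6). Of 3 fibroblast markers, COL1A2 was well above background on no array and COL1A1 fell (log2 fold change −0.50, adjusted p = 0.02 in limma), with summed signals of 338 to 378 in T47D-VC1, 305 to 350 in T47D-PA5 and 241 to 278 in T47D-PA6 over the whole fibroblast list. The part of CD14-expressing cells in the results was not tested.

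The comparison of T47D-PA6 with T47D-VC1 asks what full-length PTH-AS goes with. The signals of all 3 PML probes, of SP110 and of 1 of 3 SP100 probes were more than 2-fold higher in T47D-PA6, and those of SP140L, DAXX and the other SP100 probes did not pass the test in either direction. The rise was largest, 8.24-fold, for the probe of PML variant 1. In all, 5 of 9 probes rose and 0 fell at an adjusted p under 0.05, against 10.6% of all tested probes called in either direction, 4.43% called higher and 6.12% called lower. At an unadjusted p under 0.05 the counts were 5 higher and 1 lower, against 27% of all tested probes in either direction. For the same 5 probes all T47D-PA6 arrays were above all T47D-VC1 arrays, as for 12.2% of all tested probes. They were also the probes above 2-fold, as were 3.25% of all tested probes. The median log2 fold change of the 9 probes was 1.11, and that of all tested probes was −0.05. In RNA from whole cultures, a larger share of expressing cells and more RNA per cell cannot be told apart.

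**Figure D1:**
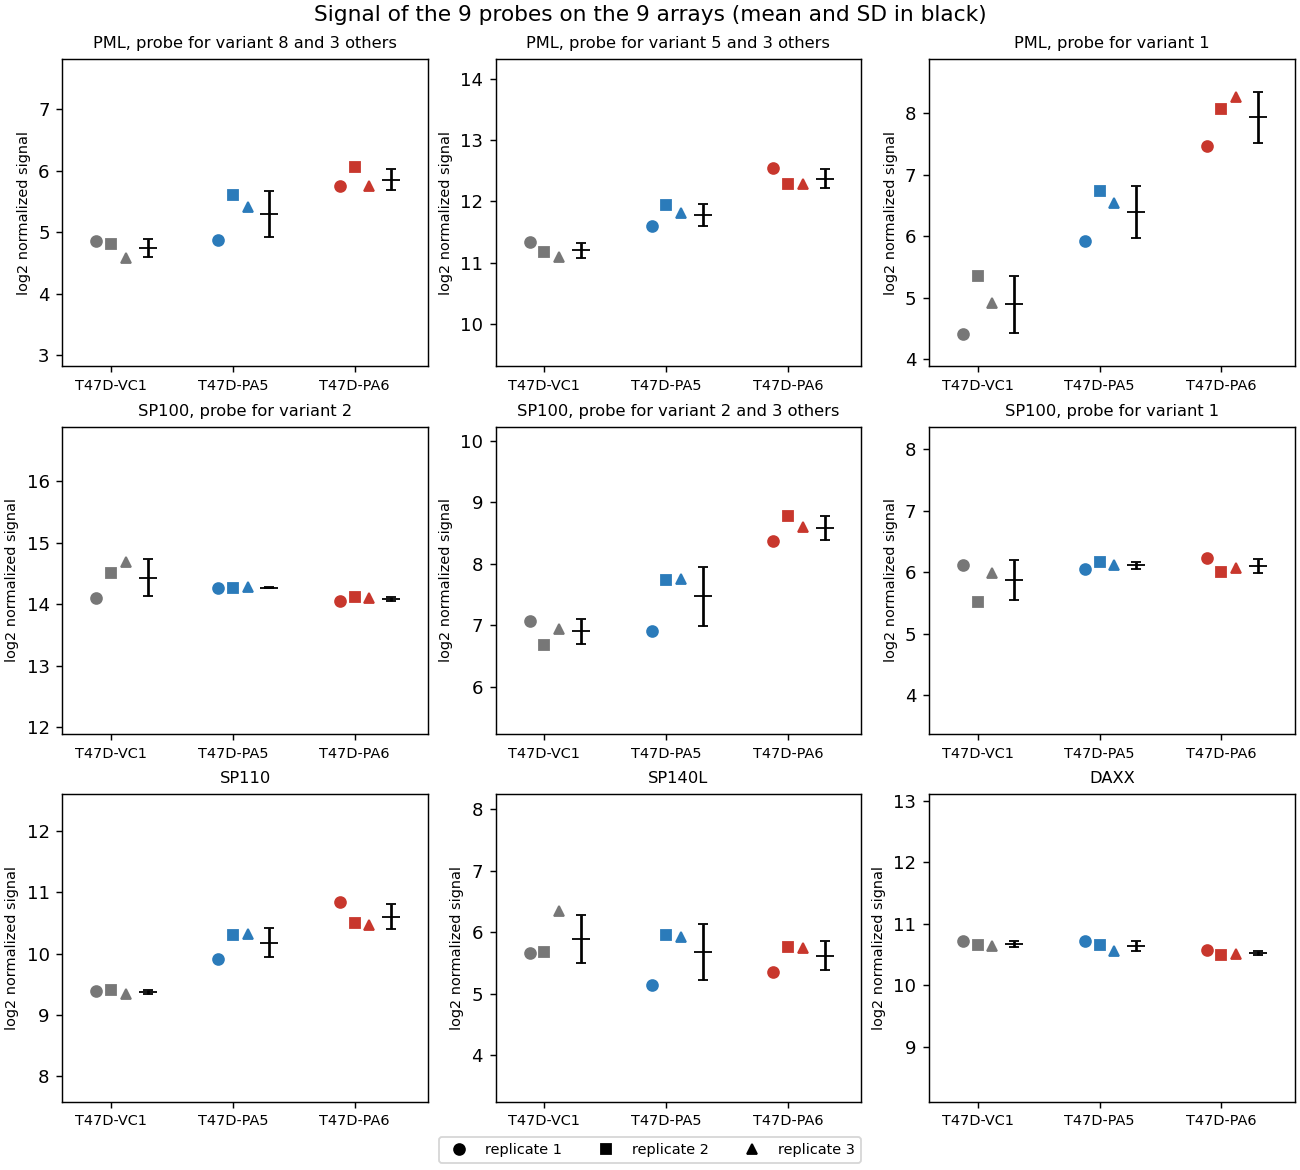
Normalized signal on the log2 scale (vertical axes, all spanning the same range) of each of the 9 probes on the 3 arrays of T47D-VC1 (gray), T47D-PA5 (blue) and T47D-PA6 (red), with the mean and SD of each line in black (n = 3) and a symbol for each replicate number. All 3 T47D-PA6 arrays sit above all 3 T47D-VC1 arrays for the 3 PML probes, SP110 and the middle SP100 probe.

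PML, the scaffold of the bodies, had the same direction on all of its probes. The probe of variant 1 gave signals of 21.3, 40.6 and 30.2 in T47D-VC1, 60.7, 106.6 and 92.8 in T47D-PA5, and 177, 267 and 308 in T47D-PA6. All T47D-PA6 arrays were above all T47D-PA5 arrays, and these were above all T47D-VC1 arrays. The log2 fold change of T47D-PA6 over T47D-VC1 was 3.04 ± 0.31 (SE, n = 3 and 3), with an adjusted p of 0.0012 in limma. Its T47D-VC1 signals were close to the background limit, and with normexp background correction the log2 fold change was 1.66 (adjusted p = 0.000727 in limma). That correction adds an offset of 50 to each signal, which by itself shrinks the fold changes of dim probes. Without it, the log2 fold change was 3.06 within the earlier scan run and 3.03 within the later run.

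The probe of PML variant 5 and 3 others, the most precise of the PML probes, gave signals of 2590, 2318 and 2189 in T47D-VC1, 3091, 3938 and 3593 in T47D-PA5, and 6004, 4978 and 4963 in T47D-PA6. The lines did not overlap, and T47D-PA5 lay between the others. T47D-PA6 over T47D-VC1 gave a log2 fold change of 1.17 ± 0.13 (SE), with an adjusted p of 0.002 in limma, and it was 1.21 and 1.14 within the 2 scan runs.

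The probe of PML variant 8 and 3 others gave signals of 28.9, 28.2 and 23.9 in T47D-VC1, 29.4, 49.0 and 42.5 in T47D-PA5, and 54.2, 66.8 and 54.2 in T47D-PA6. T47D-PA5 replicate 1 was at the level of the control arrays, and the other T47D-PA5 arrays were closer to T47D-PA6. The log2 fold change of T47D-PA6 over T47D-VC1 was 1.11 ± 0.19 (SE), with an adjusted p of 0.011 in limma, and it was 0.91 and 1.21 within the 2 scan runs. With normexp background correction, and thus with the offset of 50, this dim probe had a log2 fold change of 0.46 (adjusted p = 0.0119 in limma).

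SP100, the founding member of its family and a lasting resident of the bodies, differed between its probes. The probe of variant 2 and 3 others gave signals of 134.6, 102.5 and 123.1 in T47D-VC1, 120, 214 and 216 in T47D-PA5, and 331, 437 and 385 in T47D-PA6. All T47D-PA6 arrays were above all others, and T47D-PA5 replicate 1 lay among the controls. T47D-PA6 differed from T47D-VC1 by a log2 fold change of 1.68 ± 0.24 (SE), or 3.20-fold, with an adjusted p of 0.0044 in limma. The value was 1.30 and 1.87 within the 2 scan runs.

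The SP100 probe of variant 2 alone gave signals of 17634, 23367 and 26356 in T47D-VC1, 19653, 19714 and 20028 in T47D-PA5, and 16949, 17699 and 17650 in T47D-PA6. The control arrays spread more widely than those of the other lines, and T47D-VC1 replicate 1 lay within the range of the T47D-PA6 arrays. Between T47D-PA6 and T47D-VC1 the log2 fold change was −0.35 (95% interval −0.67 to −0.02), with an adjusted p of 0.16 in limma. Without T47D-VC1 replicate 1 it was −0.51, with an adjusted p of 0.0157, so this probe passed the test as lower. Within the earlier scan run the difference was −0.06 and within the later run −0.49. The SP100 probe of variant 1 ranged from 45.6 to 74.8 over the 9 arrays with overlapping lines, and its log2 fold change was 0.23 (95% interval −0.13 to 0.59, adjusted p = 0.4 in limma), with 0.11 and 0.29 within the 2 scan runs.

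The differences between probes of the same gene were compared directly, as the difference on each array between the log2 signals of both probes, each taken from its own mean in T47D-VC1. For SP100, the variant 2 probe minus the probe of variant 2 and 3 others was −1.86, −2.20 and −2.02 on the arrays of T47D-PA6 and −0.50, 0.30 and 0.21 on the T47D-VC1 arrays, a difference in fold change of −2.02. For PML, the probe of variant 5 and 3 others minus the probe of variant 1 was −1.23, −2.09 and −2.30 on the T47D-PA6 arrays and 0.61, −0.48 and −0.13 on the T47D-VC1 arrays, a difference of −1.88. In both pairs the T47D-PA6 arrays did not overlap with the T47D-VC1 arrays, whereas for SP100 the T47D-PA5 arrays, at −0.18, −1.01 and −1, did. The 2 other PML probes had nearly the same fold change, with a difference of −0.05 between them. Over 12 such differences, 2 lines for each of 6 pairs of probes, a two-sided exact permutation test gave 0.1, the smallest p that 3 arrays against 3 allow, for 6, and 0.2 for these after Benjamini-Hochberg adjustment. These 6 were both differences from the PML variant 1 probe in both lines and, in T47D-PA6, both differences from the SP100 probe of variant 2 and 3 others. None could pass a threshold of 0.05 in this design. The PML difference rests on a probe that was near the background limit in T47D-VC1.

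SP110, a family member that binds chromatin and is known for its role in immunity to intracellular bacteria, gave signals of 668, 680 and 651 in T47D-VC1, 959, 1264 and 1281 in T47D-PA5, and 1828, 1441 and 1414 in T47D-PA6. The lines did not overlap. In T47D-PA6 over T47D-VC1 the log2 fold change was 1.22 ± 0.15 (SE), or 2.33-fold, with an adjusted p of 0.0025 in limma, and it was 1.45 and 1.10 within the 2 scan runs.

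SP140L, the family member whose upstream sequence is closest to that of SP100, gave signals of 50.9, 51.0 and 81.3 in T47D-VC1, 35.5, 62.2 and 60.8 in T47D-PA5, and 40.8, 54.4 and 53.5 in T47D-PA6. The lines overlapped, with replicate 1 lowest in both PTH-AS lines and T47D-VC1 replicate 3 highest of all. The log2 fold change of T47D-PA6 over T47D-VC1 was −0.28 (95% interval −0.88 to 0.33, adjusted p = 0.56 in limma), with −0.32 and −0.25 within the 2 scan runs.

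DAXX, which places histone H3.3 on chromatin together with ATRX, gave signals of 1687, 1607 and 1588 in T47D-VC1, 1683, 1614 and 1507 in T47D-PA5, and 1513, 1444 and 1456 in T47D-PA6. All T47D-PA6 arrays were below all T47D-VC1 arrays, as were those of 19.1% of all tested probes. Its log2 fold change was −0.15 (95% interval −0.35 to 0.06, adjusted p = 0.35 in limma), so a change above 2-fold lies outside the interval, and it was −0.16 and −0.14 within the 2 scan runs.

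**Figure D2:**
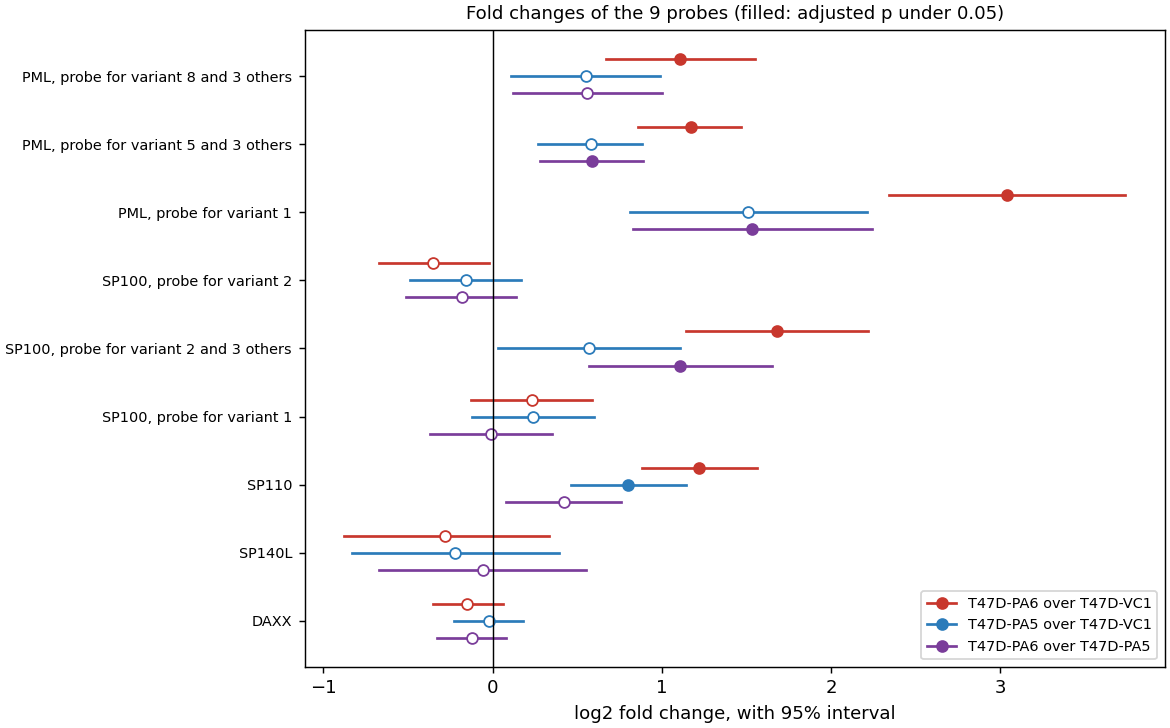
Log2 fold change of each of the 9 probes (horizontal axis) with its 95% interval from limma, for T47D-PA6 over T47D-VC1 (red), T47D-PA5 over T47D-VC1 (blue) and T47D-PA6 over T47D-PA5 (purple), filled where the adjusted p was under 0.05. In T47D-PA6 over T47D-VC1 the 5 filled points lie between 1.11 and 3.04, while SP140L and DAXX have intervals that include 0 in all 3 comparisons.

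The comparison of T47D-PA5 with T47D-VC1 uses the same control arrays and asks the same of the incomplete transcript. Only SP110 rose, with a log2 fold change of 0.80 ± 0.15 (SE), or 1.74-fold, and an adjusted p of 0.039 in limma, so 1 of 9 probes rose and 0 fell, against 1.62% of all tested probes called in either direction, 1.29% called higher and 0.332% called lower. At an unadjusted p under 0.05, 5 probes were higher and 0 lower, against 15.6% of all tested probes in either direction. The only probe above 2-fold was that of PML variant 1 at 2.84-fold, as were 2.07% of all tested probes. The log2 fold changes of the PML probes were 1.51 for variant 1 (adjusted p = 0.054), 0.58 for variant 5 and 3 others (adjusted p = 0.077) and 0.55 for variant 8 and 3 others (adjusted p = 0.21), all in limma. That of the SP100 probe of variant 2 and 3 others was 0.57 (adjusted p = 0.3). For the 3 PML probes and SP110, all T47D-PA5 arrays were above all T47D-VC1 arrays, which held for 10.7% of all tested probes. The median of the 9 probes was 0.55, and that of all tested probes was −0.03.

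The SP110 call in T47D-PA5 was near the threshold, and adjusted p ranged from 0.00177 to 0.161 over 21 alternatives. It did not pass without any 1 of the 3 T47D-VC1 arrays, of T47D-PA5 replicates 2 and 3 or of T47D-PA6 replicates 2 and 3, while the log2 fold change stayed between 0.72 and 0.94. Nor did it pass with the slide as a block (adjusted p = 0.0559) or the replicate number as a block (0.0681), with no filter (0.0925) or with the compared lines alone (0.059), all in limma, or in the methods' test (0.147), which makes 12 of the 21 alternatives. The probe of PML variant 1, on the other side of the threshold, passed in 8 of 20 alternatives, with an adjusted p of 0.00224 with the slide as a block, 0.0411 without T47D-PA5 replicate 1 and 0.0355 without T47D-PA6 replicate 1, all in limma.

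T47D-PA5 replicate 1, the only array of its line in the earlier scan run, was the lowest of its line for all of these probes. Within the earlier run the log2 difference of T47D-PA5 and T47D-VC1 was 0.52 for SP110, 0.25 for the PML probe of variant 5 and 3 others, 0.03 for that of variant 8 and 3 others and −0.17 for the SP100 probe of variant 2 and 3 others. Within the later run the same differences were 0.94, 0.74, 0.81 and 0.94. For PML variant 1 the difference was 1.51 in both runs. The SP100 probe of variant 2 differed by 0.16 in the earlier and by −0.32 in the later run. With replicates 2 and 3 alone, a choice made after the values were seen, 6 of the 9 probes passed in T47D-PA5, 5 of them higher and the SP100 probe of variant 2 lower.

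The comparison of T47D-PA6 with T47D-PA5 asks whether the complete transcript differs from the incomplete one. Of 3 probes each, 2 of PML and 1 of SP100 passed as higher with full-length PTH-AS. The PML probe of variant 1 had a log2 fold change of 1.53 ± 0.31 (SE, adjusted p = 0.018 in limma). That of variant 5 and 3 others had 0.59 ± 0.13 (SE, adjusted p = 0.029 in limma). The SP100 probe of variant 2 and 3 others had 1.11 ± 0.24 (SE, adjusted p = 0.023 in limma), and that of variant 1 had −0.01. Thus 3 of 9 probes rose and 0 fell, against 9.91% of all tested probes called in either direction, 3.46% called higher and 6.45% called lower. At an unadjusted p under 0.05 the counts were 5 higher and 0 lower, against 25.2% of all tested probes in either direction. Above 2-fold were 2 of the 9 probes, those of PML variant 1 and of SP100 variant 2 and 3 others, and 2.63% of all tested probes. SP110 had a log2 fold change of 0.42 (95% interval 0.08 to 0.76, adjusted p = 0.12) and the PML probe of variant 8 and 3 others 0.56 (95% interval 0.12 to 1, adjusted p = 0.11), and for both all T47D-PA6 arrays were above all T47D-PA5 arrays, as for 13.6% of all tested probes. For the SP100 probe of variant 2 all T47D-PA6 arrays were below all T47D-PA5 arrays (log2 fold change −0.18, adjusted p = 0.48 in limma), as for 19.2% of all tested probes. The median of the 9 probes was 0.42, and that of all tested probes was −0.01.

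These differences were unequal between the scan runs, except for PML variant 1. Within the earlier run the log2 difference of T47D-PA6 and T47D-PA5 was 1.46 for the SP100 probe, 0.96 for the PML probe of variant 5 and 3 others and 0.93 for SP110, and within the later run it was 0.93, 0.40 and 0.17. For PML variant 1 it was 1.55 and 1.53. All 3 calls were lost without T47D-PA6 replicate 2 and without T47D-PA6 replicate 3, 2 of them, those of PML, without T47D-PA5 replicate 3, and that of the PML probe of variant 5 and 3 others without T47D-PA5 replicate 1. In these fits adjusted p was 0.0693 to 0.0878 for that probe, 0.0549 to 0.0736 for PML variant 1 and 0.0793 to 0.0896 for the SP100 probe, all in limma.

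The members were set beside 10 interferon-stimulated genes and mediators that the study reads on these arrays (IFI6, IFI44, MX1, IFIT1, IFIT3, ISG15, OAS1, OAS2, IRF9 and STAT2), a list taken from the study's own account of interferon signaling in these lines, so that it is no independent evidence of a direction. All 10 rose in T47D-PA6 over T47D-VC1, 8 rose in T47D-PA5 over T47D-VC1, and all 10 rose in T47D-PA6 over T47D-PA5, in limma. The methods' test called 10, 0 and 0 of them in these comparisons. As log2 differences from the T47D-VC1 mean, averaged over the 10 genes, they reached 1.77, 3.50 and 3.38 on the T47D-PA5 arrays and 5.06, 5.68 and 5.69 on the T47D-PA6 arrays, with 8 of the 10 well above background on all T47D-VC1 arrays and the others entered at their measured signal. T47D-PA5 replicate 1 was thus the lowest PTH-AS array for this average, as it was for PML and for the SP100 probe that rose. On the same scale the PML probe of variant 1 was at 1.03, 1.84 and 1.65 on the T47D-PA5 arrays and at 2.58, 3.17 and 3.37 on the T47D-PA6 arrays, and SP110 was at 0.53, 0.92 and 0.94 and at 1.46, 1.11 and 1.09. Whether the interferon genes and the members rose for the same reason was not tested.

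Other genes of PML body biology were called about as often as all genes in T47D-PA6 over T47D-VC1. In 4 lists of 55 genes in all, each read from its brightest tested probe, 1 gene rose and 5 fell in T47D-PA6 over T47D-VC1, or 10.9%, and of all genes read in this way 10.1% were called, 4.74% higher and 5.37% lower. Of 18 genes of SUMO conjugation and removal, which modify PML and take the modification off, 0 passed in limma, with log2 fold changes from −0.32 to 0.16 and a median of −0.09. At an unadjusted p under 0.05 the SUMO genes had 0 higher and 3 lower, and the test that the methods name called 0. Of 10 histone H3.3 chaperones and partners of DAXX, 0 passed in limma, with a median of −0.14, 1 higher and 1 lower at an unadjusted p under 0.05, and 0 by the methods' test. The median over all genes was −0.03.

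Of 18 other proteins that PML bodies hold, 1 rose and 4 fell, with a median of −0.18. The methods' test called 2 of them, and 2 were higher and 6 lower at an unadjusted p under 0.05. The one that rose was ISG20, an exonuclease known to be induced by interferon. Its signals were 3282, 3373 and 3298 in T47D-VC1, 2691, 4011 and 4304 in T47D-PA5, and 5145, 7099 and 7307 in T47D-PA6, with a log2 fold change of T47D-PA6 over T47D-VC1 of 0.96 ± 0.20 (SE, adjusted p = 0.021 in limma). All T47D-PA6 arrays were above the other lines, and T47D-PA5 overlapped with the controls. The largest fall was that of CBX5, which encodes the heterochromatin protein HP1 alpha. Its signals were 4147, 5312 and 5155 in T47D-VC1, 4905, 4706 and 4545 in T47D-PA5, and 2775, 1911 and 2180 in T47D-PA6. The log2 fold change was −1.10 ± 0.16 (SE, adjusted p = 0.0047) against T47D-VC1 and −1.06 (adjusted p = 0.0063) against T47D-PA5, both in limma, and T47D-PA5 did not stand apart from the controls. USP7, a deubiquitinase, and RMI1, a partner of the BLM helicase, fell by 0.57 (adjusted p = 0.018) and by 0.50 (adjusted p = 0.019) on the log2 scale in limma.

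Of 9 genes of PML turnover, such as ubiquitin ligases that mark PML for degradation, 1 fell in T47D-PA6 over T47D-VC1 and 0 rose, with a median of −0.13. The methods' test called 0 of them, and 1 was higher and 2 lower at an unadjusted p under 0.05. The gene that fell was KLHL20, the substrate adaptor of a cullin ligase that targets PML, with a log2 fold change of −0.41 ± 0.09 (SE, adjusted p = 0.029 in limma). It was also lower than in T47D-PA5, by a log2 fold change of −0.55 (adjusted p = 0.0095). Its signals were 280, 256 and 278 in T47D-VC1, 292, 300.2 and 306 in T47D-PA5, and 193, 203 and 217 in T47D-PA6, so the T47D-PA6 arrays were below all others. In T47D-PA5 over T47D-VC1, 0 genes of these 4 lists passed in limma and 0 by the methods' test. At an unadjusted p under 0.05 there were 1 higher and 1 lower SUMO genes, 2 higher and 1 lower H3.3 genes, and 0 in the other lists. In that comparison 1.65% of all genes were called. In T47D-PA6 over T47D-PA5, 9.64% of all genes were called, 3.61% higher and 6.03% lower. Of the 55 genes of the 4 lists together, 16.4% were called there, 1.82% higher and 14.5% lower. In this comparison 1 of 18 SUMO genes, 2 of 10 H3.3 genes, 3 of 18 other body proteins and 2 of 9 turnover genes fell. ISG20 alone rose (log2 fold change 0.84).

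**Figure D3:**
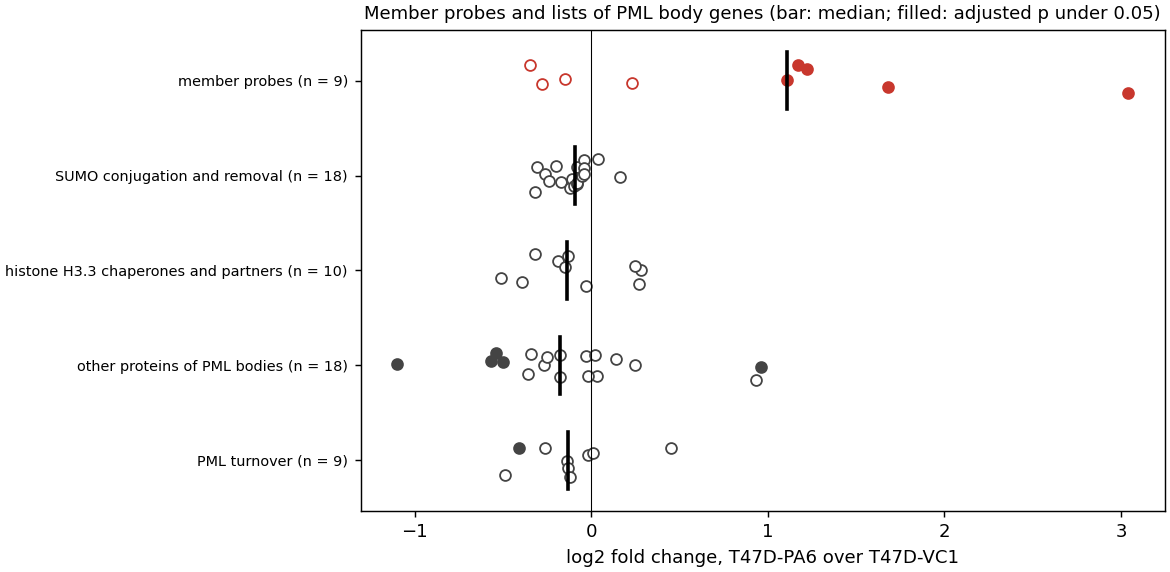
Log2 fold change of T47D-PA6 over T47D-VC1 (horizontal axis) for the 9 member probes (red) and for the genes of 4 lists of PML body biology (gray, 1 probe a gene), filled where the adjusted p was under 0.05, with the median of each row as a black bar. The members' median is 1.11, and the medians of the 4 lists lie between −0.18 and −0.09.

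On chromosome 2, probes around the SP100 family changed in both directions. Between chr2:230042261 and chr2:232410275 in hg19, that is from 1000000 bases before the SP110 probe to as far beyond the outermost SP100 probe, 23 other probes of 16 genes were tested. In T47D-PA6 over T47D-VC1, 2 were higher and 3 lower, so that 21.7% were called against 10.6% of all tested probes, and the median was −0.04. Both probes that were higher belong to ITM2C, with log2 fold changes of 1.30 and 1.45, and those that were lower belong to FBXO36, SLC16A14 and C2orf72. SP140, the family member that lies between SP110 and SP140L, had log2 fold changes of 0.19 (adjusted p = 0.4) and −0.44 (adjusted p = 0.26) on its 2 probes in limma.

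**Figure D4:**
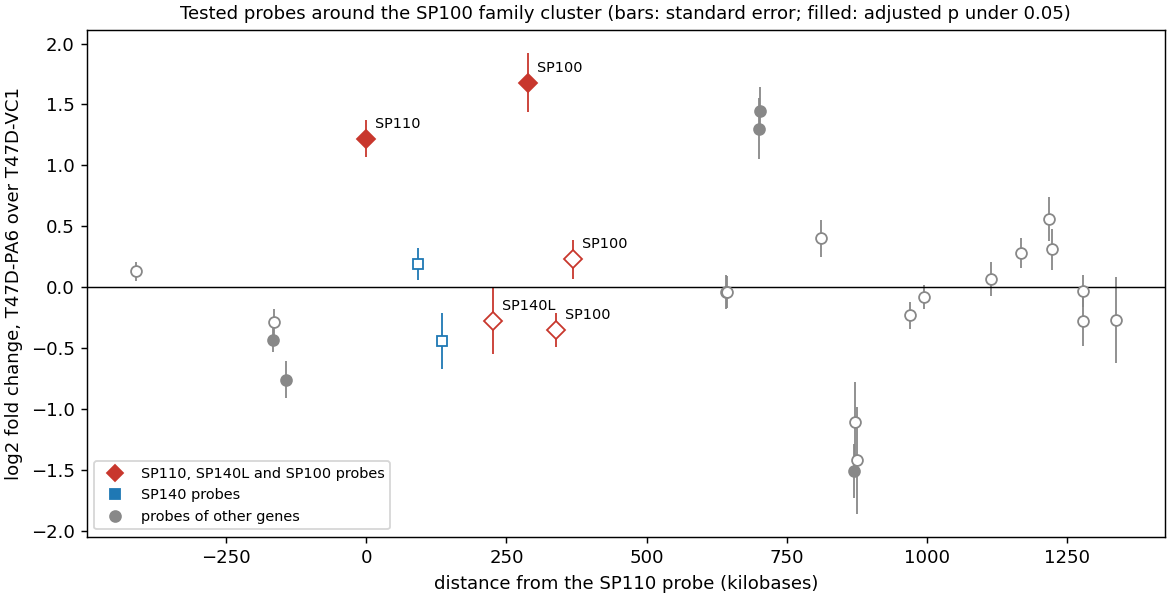
Log2 fold change of T47D-PA6 over T47D-VC1 with its SE (vertical axis) against the distance from the SP110 probe in kilobases (horizontal axis), for the probes of SP110, SP140L and SP100 (red diamonds), SP140 (blue squares) and their neighbors (gray circles), filled where the adjusted p was under 0.05. SP110 at 1.22 and 1 SP100 probe at 1.68 stand above the unfilled SP140, SP140L and other SP100 probes between and beside them.

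Finally, the genes whose signal followed each member most closely over the 9 arrays were listed among 18225 genes, each read from its brightest probe that was well above background on all arrays. These correlations describe 9 arrays that share slides and lines. For PML the highest Pearson correlations were with LOC645553 (0.992), SHISA5 (0.990) and LGALS9C (0.988), and for SP110 with BTN3A1 (0.980), IFI27 (0.980) and PCDHB11 (0.978). For the brightest SP100 probe, that of variant 2, they were with XLOC_l2_003992 (0.979), C3orf33 (0.975) and SAPCD2 (0.972). For SP140L they were with SNORD58C (0.977), SNORA21 (0.937) and lnc-FLYWCH2-1 (0.934), and for DAXX with LOC145783 (0.968), lnc-WBSCR16-1 (0.962) and RBM25 (0.959). None of these genes was among the 3 closest of more than 1 member.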

How the data were processed

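RNA labeled with Cy3 was hybridized to SurePrint G3 Human Gene Expression v3 arrays, 9 in all. The spot intensities that the authors deposited had been background-subtracted within each array by Feature Extraction, whose version is 10.7.1.1 in the files and 9.5.1.1 in the submitters' notes. Their own quantile-normalized intensities, also deposited, were used here as an alternative. Control spots and 46 to 117 outlier spots per array were left out, replicate spots were averaged as log2 values, and arrays were quantile-normalized, as the methods state. A probe was tested when well above background on all arrays of at least 1 line. Both the mean signals (geometric means) and the fold changes come from these values. The 3 lines were compared in 1 limma fit over 9 arrays (limma 3.58.1, R 4.3.3), with Benjamini-Hochberg adjustment over all tested probes of a comparison and a threshold of 0.05. Ratios over 2 were counted without a test, after the methods. On simulated data with 200 of 26155 probes changed by a log2 value of 2 in T47D-PA6, the fit called 174 of them against T47D-VC1, with 6 others.

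The members and lists were chosen with earlier results of these data known. All member probes were named, and, of the lists, genes past the threshold in T47D-PA6 over T47D-VC1 (some are not reported here), plus the 3 closest genes of each member. TRIM47, the neighbors on chromosome 2 and the markers were named outside this rule, after their values were seen. Lists were read from each gene's brightest tested probe. SUMO4 and H3F3B were not found under these names. Promoter sequences came from RefSeq and were aligned with biopython 1.88, and figures were drawn with matplotlib 3.10.9. The alternatives were another normalization (75th percentile), normexp (offset 50), the authors' normalized values, no filter or a stricter one, 1 probe a gene, slide or replicate blocks, the methods' test, an intensity trend, a fit to the compared lines alone, each array left out, and the ratio rule.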

Additional observations from a re-analysis of the deposited data

How the results depend on the processing

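The 5 member calls in T47D-PA6 over T47D-VC1 stayed past the threshold with the same sign under all alternatives in which these probes were tested, with a largest adjusted p of 0.0486 in limma or the methods' test. With 1 probe a gene, which drops the dimmer probes, 2 members were called. Leaving out 1 array at a time gave 5 to 6 member calls, and 1040 to 3648 of all probes (lowest without T47D-VC1 replicate 3, highest without T47D-PA6 replicate 1) against 2762 in the fit reported. All probes called were 1787 without a filter, 644 with the methods' test, 1613 with the compared lines alone and 9388 with replicates 2 and 3 only, an alternative chosen after seeing the data. In T47D-PA5 over T47D-VC1, members called were 3 with the 75th percentile and with the intensity trend, 2 with normexp and with the stricter filter, 6 with replicates 2 and 3 only, and 0 with no filter, with the methods' test and with the compared lines alone, and 0 to 3 with 1 array left out (highest without T47D-PA5 replicate 1 or T47D-PA6 replicate 1). Of all probes, 424 in the fit reported, 246 were called with no filter, 722 with the slide as a block, 38 with the methods' test, 637 with the trend, 5208 with replicates 2 and 3 only and 1042 by the ratio rule, and 127 to 812 with 1 array left out (lowest without T47D-PA5 replicate 3, highest without T47D-PA6 replicate 1). In T47D-PA6 over T47D-PA5, members called were 0 with no filter, 1 with 1 probe a gene, with the methods' test and with the compared lines alone, and 0 to 3 with 1 array left out. The member called by the methods' test was the SP100 probe of variant 2, which was lower. That test kept none of the rises (adjusted p from 0.0995 to 0.137). Of all probes, 2593 in the fit reported, 1690 were called with no filter, 965 with the methods' test, 9033 with replicates 2 and 3 only and 1015 to 3892 with 1 array left out (lowest without T47D-PA6 replicate 2, highest without T47D-PA6 replicate 1). The cause of these moves was not tested.

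All reversals concern probes that did not pass, and values with 1 array left out are given from the lowest to the highest where they reversed. For SP140L the log2 fold change of T47D-PA5 over T47D-VC1 ranged from −0.36 to 0.05, with 0.01 without T47D-VC1 replicate 3 and 0.05 without T47D-PA5 replicate 1, and that of T47D-PA6 over T47D-PA5 ranged from −0.32 to 0.08, with 0.02 at the 75th percentile, 0.08 without T47D-PA5 replicate 2 or T47D-PA6 replicate 1 and 0.07 without T47D-PA5 replicate 3. For DAXX the comparison of T47D-PA5 with T47D-VC1 gave −0.06 to 0.02, with 0 without T47D-VC1 replicate 1 and 0.02 without T47D-PA5 replicate 3. For the SP100 probe of variant 1 the comparison of T47D-PA6 with T47D-PA5 gave −0.07 to 0.04, with 0.03 at the 75th percentile, 0 with normexp or without T47D-PA6 replicate 3, 0.02 without T47D-PA5 replicate 2 and 0.04 without T47D-PA6 replicate 2.

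Arrays of the same replicate number in different lines deviated from their line means with correlations of 0.08 to 0.33, 8 of 9 over 0.1, and 4 of 9 arrays correlated best with their own number in both other lines. Replicate 1 arrays, which share slide 1 and the earlier scan run, correlated at 0.19 to 0.33 with each other and at −0.3 to −0.11 with the rest, whereas among replicates 2 and 3 it was 0.08 to 0.23 for the same and 0.09 to 0.25 for different numbers, so the numbers were not taken as pairs. With the replicate number as a block, the member calls were 5, 1 and 3, and all probes called were 3404, 595 and 3160, in T47D-PA6 over T47D-VC1, T47D-PA5 over T47D-VC1 and T47D-PA6 over T47D-PA5. The member called in T47D-PA5 under the block was PML variant 1 (adjusted p = 0.00489 in limma) and not SP110 (adjusted p = 0.0681).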
